A study of Mus musculus with 8 samples.

Results

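Complex I (NADH:ubiquinone oxidoreductase) is the first enzyme of the mitochondrial respiratory chain, and most of its parts are made from nuclear genes whose names start with Nduf. The transcripts described here are all rows named Nduf in the deposited tables, leaving out names with -ps. There were 46 of them among 49315 genes. They comprise 36 subunit genes, 8 assembly factor genes (names starting Ndufaf), and Ndufa4 and Ndufa4l2, which carry the family name but do not encode complex I subunits. The libraries came from immortalized mouse embryonic fibroblasts (MEFs), cultured fibroblasts from mouse embryos. In 4 libraries the cells were labelled Opa1-/-, and in 4 they were labelled Opa1-/- + OPA1, the same genotype with OPA1 restored (reconstituted below). Both groups therefore carry the deletion. The labels state neither how the line was immortalized nor how OPA1 was returned, nor whether it is 1 clone, and they name no treatment. OPA1 fuses the mitochondrial inner membrane and shapes its cristae, where the respiratory chain sits, and the series asked what its loss does to the transcriptome.

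Complex I takes electrons from NADH in a peripheral arm that stands in the matrix and passes them through flavin and iron-sulfur clusters to ubiquinone. A membrane arm pumps protons, and its central subunits are encoded by mitochondrial DNA. Nuclear-encoded core subunits carry the redox groups, accessory subunits surround them, and assembly factors help build the enzyme without staying in it. The roles given below were worked out mainly in human and bovine enzymes.

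Each library file held TPM, a length-normalized transcript abundance, for every gene, and the steps in the low values implied 53000000 to 57800000 assigned reads per library. Apart from Ndufa4l2, each member rested on at least 201 implied reads in every library. Values below are scaled TPM, and differences are Opa1-/- minus reconstituted libraries in log2(scaled TPM + 1). A gene is called higher or lower at an adjusted p below 0.05 (limma-trend, Benjamini-Hochberg over the 14272 genes that reached 1 TPM in 4 libraries or more). Whether the libraries of a group came from separate cultures is not labelled, so the p-values rest on spread that may be technical. Opa1 itself averaged 13.9 TPM in Opa1-/- libraries and 14.8 TPM in reconstituted libraries (difference -0.09, adjusted p = 0.299), so this total does not check the labels. Opa1-/- library 4 stood apart from the rest along gene length, with a Spearman rho of -0.43 between its deviations and exon length across 9406 genes, against -0.207 to 0.262 in the other 7 libraries. Of 10 fibroblast markers 8 averaged 1 TPM or more, Lum and Pdgfra did not, and the sum of all 10 was 2687 to 2985 TPM in Opa1-/- libraries and 3128 to 3198 TPM in reconstituted libraries. Of these 10, 4 were called lower (Col1a1, Col1a2, Pdgfrb and S100a4) and 1 higher (Col3a1). Epithelial markers (4 genes) summed to 175 to 212 TPM in Opa1-/- libraries and 144 to 207 TPM in reconstituted libraries, mostly Krt18, which was not called (adjusted p = 0.788). Krt8 and Cdh1 were called higher, at 4.60 and 12.9 TPM in Opa1-/- libraries, against 2.21 and 8.10 TPM in reconstituted libraries (adjusted p = 0.000569 and 0.00218). Epcam, below the filter, was at 0.270 to 0.528 TPM in Opa1-/- libraries and 0.0781 to 0.154 TPM in reconstituted libraries. Markers of blood, endothelium and muscle together summed to 3.11 to 8.12 TPM in Opa1-/- libraries and 4.10 to 6.12 TPM in reconstituted libraries, and Myog was at 0 in all libraries. The part of these marker differences in the results below was not tested.

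Of 36 subunit genes, all tested, 16 rose in the Opa1-/- libraries, 1 fell (Ndufb11) and 19 were not called. The difference was above 0 for 32 of them and below 0 for 4. The share called higher was 44.4%, where 16.2% of all tested genes were called higher, and the share called lower was 2.78%, where 16.9% of all tested genes were called lower. In either direction 21 of the 45 tested members were called, where 33% of all tested genes were. The median difference was 0.19 over the subunits and -0.00 over all genes. Of 8 Ndufaf genes 3 rose (37.5%), 1 fell (12.5%) and 4 were not called, with a median difference of 0.13. Single values ran from -0.18 (Ndufb11) to 0.45 (Ndufs6) among subunits and from -0.25 (Ndufaf4) to 0.50 (Ndufaf8) among assembly factors. All 4 Opa1-/- libraries lay above all 4 reconstituted libraries for 16 subunits and 3 assembly factors, where 17.2% of all genes did so. All 4 lay below for 1 assembly factor and 0 subunits, against 19% of all genes.

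**Figure D1:**
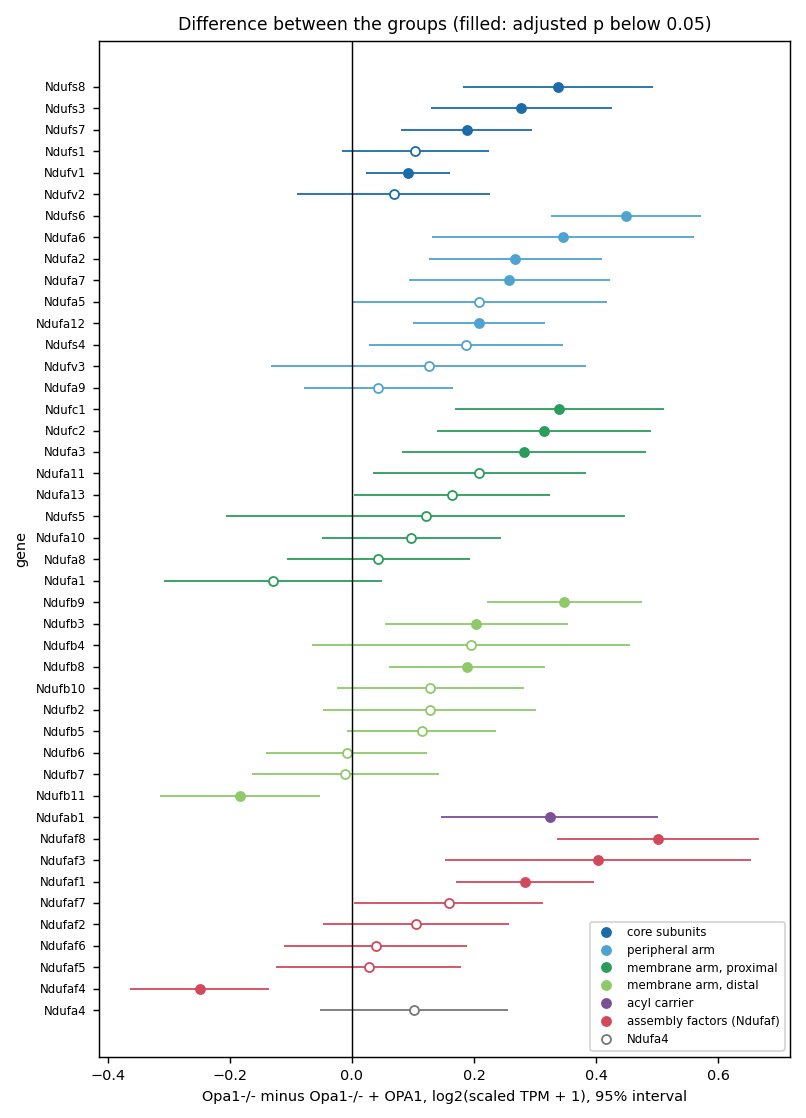
Difference between Opa1-/- and reconstituted libraries for 44 of the 45 tested Nduf genes (x axis, log2 of scaled TPM plus 1; points are estimates, bars 95% confidence intervals from limma-trend), grouped by role and coloured by it; filled points have an adjusted p below 0.05. Most subunits lie to the right of 0 by less than 0.35, while Ndufaf8 (0.50) and Ndufaf4 (-0.25) mark the ends of the range.

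Promoters are shown for 3 genes picked by their values: the subunit gene with the largest rise, the assembly factor gene with the largest rise and the assembly factor gene that fell. The sequences are the 250 bases before the RefSeq transcription start on the gene's own strand (GRCm38.p6, the assembly of mm10), 5′ to 3′, with capitals marking a match to a searched motif. Ndufs6 lies on the minus strand (promoter chr13:73328483-73328732) and holds the NRF1 motif (GCGCA, any base, then GCGC), read on the opposite strand. Ndufaf8 lies on the plus strand (chr11:120098684-120098933) and holds the ETS motif CCGGAAG, the letters read by the factor GABP. Ndufaf4 lies on the plus strand (chr4:24897833-24898082) and holds the NRF1 motif. The starts differ between annotations. GENCODE M21 starts Ndufs6 further upstream, at 73328542, so that the motif shown lies inside the gene as annotated there. It starts Ndufaf8 at 120098928, within the motif shown, and Ndufaf4 at 24898083, just after the window.
Ndufs6: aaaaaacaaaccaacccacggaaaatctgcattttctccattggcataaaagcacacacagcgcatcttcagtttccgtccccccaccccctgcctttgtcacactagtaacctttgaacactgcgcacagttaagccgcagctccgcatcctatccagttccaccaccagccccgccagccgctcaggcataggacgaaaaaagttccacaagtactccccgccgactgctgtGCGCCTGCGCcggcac
Ndufaf8: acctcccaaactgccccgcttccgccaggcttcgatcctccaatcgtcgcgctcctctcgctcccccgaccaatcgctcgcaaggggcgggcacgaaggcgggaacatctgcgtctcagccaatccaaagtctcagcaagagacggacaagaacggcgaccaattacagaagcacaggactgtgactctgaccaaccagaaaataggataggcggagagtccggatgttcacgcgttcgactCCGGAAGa
Ndufaf4: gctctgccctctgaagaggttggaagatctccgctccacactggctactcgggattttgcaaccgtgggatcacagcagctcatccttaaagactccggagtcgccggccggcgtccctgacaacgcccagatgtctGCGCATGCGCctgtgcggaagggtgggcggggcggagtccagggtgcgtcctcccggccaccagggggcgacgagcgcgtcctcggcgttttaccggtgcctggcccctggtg

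NRF1 and GABP are transcription factors known for binding promoters of respiratory chain genes. Promoters of 40 of the 46 members were in the RefSeq table, and both strands of the 250-base window were searched. The NRF1 letters were in 7 of these 40 promoters (17.5%), where 4.23% of 27025 gene promoters held them. The 27025 genes were not limited to those tested here, so these shares do not compare members with expressed genes alone. The ETS letters CCGGAAG were in 5 of 40 (12.5%), where 7.83% of all did. The YY1 letters AANATGGCG were in 2 of 40 (5%), where 1.29% of all did. Neither TGATGNAA, the letters of the CARE element read by ATF4, nor TCAAGGTCA of the ERR receptors was in any of the 40, where 3.91% and 0.422% of all promoters held them. The NRF1 letters were in 1 of 17 promoters of members called higher (Ndufs6), in 5 of 21 of members not called, and in that of Ndufaf4, which fell. A match of letters is a description of the window and not a binding site.

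Among the 7 core subunits 4 rose and 3 were not called, with a median difference of 0.10. Ndufs8, an iron-sulfur protein on the path to ubiquinone, was at 280.3, 291, 282 and 349.6 TPM in Opa1-/- libraries 1 to 4. It was at 234, 245, 231 and 238 TPM in reconstituted libraries 1 to 4. The groups did not overlap and Opa1-/- library 4 was the highest (0.34, SE 0.07, adjusted p = 0.00564). Ndufs3, which sits in the ubiquinone-binding part, averaged 82.7 ± 7.75 TPM in Opa1-/- libraries and 67.8 ± 2.35 TPM in reconstituted libraries (SD, n = 4 each), with an adjusted p of 0.0112. Ndufs7, another iron-sulfur protein of that part, averaged 134 ± 5.56 TPM in Opa1-/- libraries and 118 ± 6.01 TPM in reconstituted libraries (SD, n = 4 each). The adjusted p of Ndufs7 was 0.0148 (limma-trend), and 0.0724 once each library's trends with exon length and GC content were removed. Ndufv1, which binds the flavin and oxidizes NADH, was at 192, 195, 188 and 196 TPM in Opa1-/- libraries and at 182, 181, 181 and 179 TPM in reconstituted libraries. The groups did not overlap, yet the step was small (0.09, SE 0.03, adjusted p = 0.0448), and this was the called member nearest the threshold. The call of Ndufv1 ended under 17 of 23 alternatives, among them the replicate block (adjusted p = 0.076) and the removal of length and GC trends (0.617). It also ended without any single library other than Opa1-/- library 3 or 4, with adjusted p of 0.0873 (Opa1-/- library 1 left out), 0.0928 (Opa1-/- library 2) and, for reconstituted libraries 1 to 4, 0.0961, 0.107, 0.111 and 0.123. Ndufs1, the largest iron-sulfur subunit, differed by 0.10 (adjusted p = 0.170). It was lowest among the Opa1-/- libraries in library 4, at 56.6 TPM against 60.4 to 66.8 TPM in the other 3, and without that library it passed (0.15, adjusted p = 0.0159), as it did with length and GC trends removed (0.0185). Ndufv2, another iron-sulfur subunit, differed by 0.07 (adjusted p = 0.495).

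Of 9 accessory subunits of the peripheral arm 5 rose and 4 were not called (median 0.21). Ndufs6, a zinc-binding subunit at the NADH end, was at 269.6, 276, 243 and 281 TPM in Opa1-/- libraries. It was at 192, 202, 184 and 204 TPM in reconstituted libraries. The groups were apart by a wide margin (0.45, SE 0.05, adjusted p = 0.000392). Ndufa6, which binds an acyl carrier protein, was at 313, 393, 279.7 and 361 TPM in Opa1-/- libraries and at 256, 254, 264 and 276 TPM in reconstituted libraries. Its Opa1-/- libraries spread far more than its reconstituted libraries, and the lowest of them, library 3, lay just above the highest reconstituted one. Ndufa6 was at 0.35 (SE 0.10, adjusted p = 0.0217), and at adjusted p = 0.057, 0.0571 and 0.0505 without reconstituted library 1, 2 and 3. Ndufa2, a thioredoxin-like subunit and the most abundant subunit transcript by TPM, averaged 527 ± 45.04 TPM in Opa1-/- libraries and 436 ± 16.3 TPM in reconstituted libraries (adjusted p = 0.0103). Ndufa7 rose by 0.26 and Ndufa12, which replaces the assembly factor Ndufaf2 late in assembly, by 0.21 (adjusted p = 0.0245 and 0.00957). Leaving out reconstituted library 1, 3 or 4 ended the call of Ndufa7 (adjusted p = 0.0681, 0.0689 and 0.0573). Ndufa5 (0.21, adjusted p = 0.115) and Ndufs4, whose loss in mice gives a Leigh-like brain disease (0.19, adjusted p = 0.0696), were not called. With the replicate number as a block they passed, at adjusted p = 0.0335 and 0.0445. Without Opa1-/- library 3 they passed too, at 0.0114 for Ndufa5 and 0.0402 for Ndufs4. Ndufv3 and Ndufa9, which binds NADPH, were at 0.13 and 0.04 and not called.

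Among the 9 accessory subunits of the proximal membrane arm 3 rose and 6 were not called (median 0.16). Ndufc1, a small membrane subunit, was at 76.0, 85.0, 71.8 and 90.5 TPM in Opa1-/- libraries and at 60.6, 68.7, 60.6 and 64.1 TPM in reconstituted libraries (0.34, SE 0.08, adjusted p = 0.00846). Ndufc2, its neighbour in the enzyme, was at 248, 289.7, 229.9 and 279.9 TPM in Opa1-/- libraries and at 212, 227, 198 and 203 TPM in reconstituted libraries (0.31, SE 0.08, adjusted p = 0.0135). In both genes the groups were separate, with Opa1-/- library 3 closest to the reconstituted libraries. Ndufa3 was at 70.6, 86.4, 73.6 and 91.6 TPM in Opa1-/- libraries and at 63.8, 70.4, 60.1 and 68.9 TPM in reconstituted libraries. Ndufa3 barely separated the groups (0.28, SE 0.09, adjusted p = 0.0367), and it did not pass without Opa1-/- library 2 or 4 (0.0907 and 0.0615) or reconstituted library 1, 3 or 4 (0.0878, 0.101 and 0.0579). With the median difference of each chromosome removed, neither Ndufa3 (0.17, adjusted p = 0.181) nor Ndufc2 (0.20, adjusted p = 0.0775) passed; both lie on chromosome 7, whose median was 0.10. Ndufa11, a membrane subunit at the junction with complex III in supercomplexes, was the uncalled member nearest the threshold. It was at 39.5, 44.2, 38.4 and 49.5 TPM in Opa1-/- libraries and at 35.0, 37.7, 38.4 and 36.2 TPM in reconstituted libraries, so that the groups touched at library 3 (0.21, SE 0.08, adjusted p = 0.0664, and 0.0323 without Opa1-/- library 3). Ndufa13, also called GRIM-19, was not called (0.16, adjusted p = 0.110) although its groups did not overlap. With chromosome medians removed Ndufa13 was at 0.35 (adjusted p = 0.010), as genes of chromosome 8 had a median of -0.18. Ndufa10, Ndufa8 and Ndufs5, the last with twin CX9C cysteine motifs on the intermembrane side like Ndufa8, were at 0.10, 0.04 and 0.12 and not called.

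Both X-linked members lay below 0. Ndufa1, a small membrane subunit, was at 259, 306, 239.7 and 279 TPM in Opa1-/- libraries and at 279.5, 315, 275 and 312 TPM in reconstituted libraries. Its groups overlapped widely (-0.13, SE 0.08, adjusted p = 0.247), and with the replicate block it was called lower (adjusted p = 0.0457). Ndufb11 of the distal arm was at 181, 201, 189.6 and 212 TPM in Opa1-/- libraries and at 211, 226, 215 and 238 TPM in reconstituted libraries. Only Opa1-/- library 4 reached into the range of the reconstituted libraries (-0.18, SE 0.06, adjusted p = 0.0378). The median difference over the 301 X-linked genes with a mean log2 value above 3 was -0.36. With chromosome medians removed the direction of both turned, to 0.22 for Ndufa1 (adjusted p = 0.0729) and 0.16 for Ndufb11 (adjusted p = 0.0721). The call of Ndufb11 also ended without Opa1-/- library 1, 2 or 3 (adjusted p = 0.0924, 0.0567 and 0.0797) or reconstituted library 2, 3 or 4 (0.0894, 0.0614 and 0.107).

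Of 10 accessory subunits of the distal membrane arm 3 rose, 1 fell (Ndufb11) and 6 were not called (median 0.13). Ndufb9, which binds an acyl carrier protein at the far end of the arm, was at 408, 449, 386 and 454 TPM in Opa1-/- libraries and at 324, 344, 334 and 329 TPM in reconstituted libraries. The groups were well apart (0.35, SE 0.06, adjusted p = 0.00168). Of its exon bases 19.5% overlap another annotated gene, Gm49356. Ndufb3 (0.20, adjusted p = 0.0416) and Ndufb8 (0.19, adjusted p = 0.0305) rose by small steps, and the groups of Ndufb3 overlapped. The call of Ndufb3 was lost without any single library other than Opa1-/- library 3 (highest adjusted p 0.107), and that of Ndufb8 without Opa1-/- library 2 (0.0733) or any one reconstituted library (highest 0.0899). Ndufb2, Ndufb4, Ndufb5 and Ndufb10 lay between 0.11 and 0.19, and Ndufb6 and Ndufb7 at -0.01. Ndufb6 and Ndufb7 lie on chromosomes 4 and 8, whose medians were -0.15 and -0.18, and with chromosome medians removed they were at 0.15 and 0.18 (adjusted p = 0.0976 and 0.109). Ndufab1, the mitochondrial acyl carrier protein held by both arms, was at 27.7, 28.8, 27.6 and 35.7 TPM in Opa1-/- libraries and at 22.9, 23.2, 23.8 and 24.4 TPM in reconstituted libraries (0.32, SE 0.08, adjusted p = 0.0128). Its groups did not overlap, and with chromosome medians removed it was at 0.21 (adjusted p = 0.0752). Read by arm, 9 of 16 peripheral arm subunits, core included, and 6 of 19 membrane arm subunits were called higher (medians 0.20 and 0.13). Of all tested genes 16.2% were called higher. All subunit genes on chromosomes 4, 8 and X belong to the membrane arm (Ndufb6, Ndufs5, Ndufa13, Ndufb7, Ndufa1 and Ndufb11). The median differences of these chromosomes were -0.15, -0.18 and -0.36, and their part in the contrast between the arms was not tested. Over all 19 subunits that were not called, the differences ran from -0.13 to 0.21 and the 95% confidence intervals from -0.31 to 0.45.

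**Figure D2:**
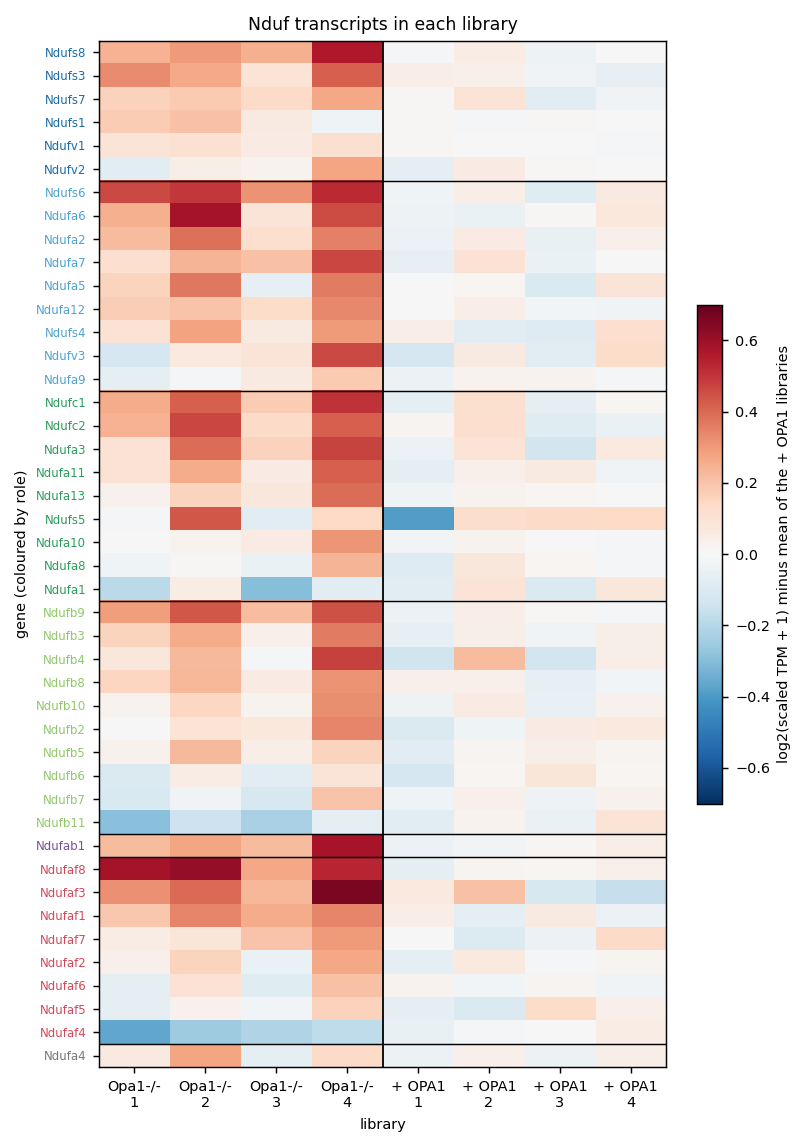
Shown are 44 of the 45 tested Nduf genes (rows, grouped and coloured by role as in the plot of differences) in each of the 8 libraries (columns), with colour giving log2 of scaled TPM plus 1 minus the mean of that gene's reconstituted (+ OPA1) libraries; red is above and blue below. Opa1-/- library 4 is the reddest column and Opa1-/- libraries 1 and 3 are the palest of their group, while Ndufaf4 and Ndufb11 are blue where most other rows are red.

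Among the assembly factors, Ndufaf8, Ndufaf3 and Ndufaf1 rose and Ndufaf4 fell. Ndufaf8, a twin CX9C protein that stabilizes Ndufaf5, was at 54.4, 55.7, 43.7 and 52.7 TPM in Opa1-/- libraries and at 34.3, 36.5, 36.4 and 36.9 TPM in reconstituted libraries. The groups were well separated even at Opa1-/- library 3, the lowest of its group (0.50, SE 0.07, adjusted p = 0.00102). Ndufaf5 itself, which hydroxylates an arginine of Ndufs7, was at 20.4, 21.8, 21.0 and 24.0 TPM in Opa1-/- libraries and at 20.4, 19.8, 23.4 and 21.9 TPM in reconstituted libraries. Its groups lay on top of each other (0.03, 95% confidence interval -0.12 to 0.18).

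Ndufaf3 and Ndufaf4, partners in building the ubiquinone-binding part, were called in opposite directions. Ndufaf3 was at 8.73, 9.26, 8.14 and 11.3 TPM in Opa1-/- libraries and at 7.17, 7.96, 6.203 and 5.96 TPM in reconstituted libraries. The gap between the groups was narrow (0.40, SE 0.11, adjusted p = 0.0215), and Ndufaf3 did not pass without reconstituted library 3 or 4 (0.062 and 0.0621), with no filter on low values (0.0579) or with chromosome medians removed (0.0722). Ndufaf4 was at 19.8, 21.6, 22.2 and 22.7 TPM in Opa1-/- libraries and at 24.9, 25.7, 25.9 and 26.8 TPM in reconstituted libraries. All 4 Opa1-/- libraries were below (-0.25, SE 0.05, adjusted p = 0.00529), also whenever a single library was left out. Ndufaf4 lies on chromosome 4, whose genes had a median of -0.15, and with chromosome medians removed it was at -0.09 (adjusted p = 0.208).

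Ndufaf1 belongs to the complex that assembles the membrane arm, with Acad9, Ecsit and Tmem126b. It was at 37.3, 41.5, 39.2 and 41.5 TPM in Opa1-/- libraries and at 33.6, 31.1, 34.0 and 31.6 TPM in reconstituted libraries (0.28, SE 0.05, adjusted p = 0.00278). The groups did not overlap and the call held under all 23 alternatives. Ndufaf7, a mitochondrial arginine methyltransferase, was at 30.8, 31.5, 34.3 and 36.7 TPM in Opa1-/- libraries and at 29.7, 27.7, 28.8 and 32.6 TPM in reconstituted libraries. It was not called (0.16, adjusted p = 0.107), and passed with the replicate block (0.0415). Ndufaf6, which acts early on the subunit encoded by mt-Nd1, was at 22.3, 25.1, 21.9 and 27.0 TPM in Opa1-/- libraries and at 23.8, 23.0, 23.7 and 22.9 TPM in reconstituted libraries, with no call (0.04, adjusted p = 0.694). Ndufaf2, the paralogue of Ndufa12 that sits on late intermediates, was at 142, 154, 134 and 167 TPM in Opa1-/- libraries and at 132, 145, 137 and 140.2 TPM in reconstituted libraries (0.11, adjusted p = 0.267). Of the exon bases of Ndufaf2, 65.6% overlap B230220B15Rik on the opposite strand in GENCODE M21. No label or header says that counting used strand, so reads of this gene pair cannot be told apart. Ndufaf2 was the most abundant assembly factor by TPM, and the other 7 averaged at most 51.6 TPM in Opa1-/- libraries and 36.04 TPM in reconstituted libraries.

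The subunits summed to 5547, 6069, 5354 and 6331 TPM in Opa1-/- libraries 1 to 4, a mean of 5825 ± 453 (SD). In reconstituted libraries 1 to 4 they summed to 4996, 5292, 5029 and 5200 TPM, a mean of 5129 ± 141. The lowest Opa1-/- sum, in library 3, exceeded the highest reconstituted sum by a small margin. Assembly factors summed to 336, 361, 324 and 383 TPM in Opa1-/- libraries (351 ± 26.2) and to 305, 317, 315 and 319 TPM in reconstituted libraries (314 ± 5.93). In bulk RNA, a shift of every cell and a shift in some of the cells cannot be told apart. Opa1-/- library 4 held the highest value of 26 of the 36 subunits and 6 of the 8 assembly factors, and library 2 that of 8 subunits and 1 assembly factor. Without Opa1-/- library 4 the calls were 15 subunits higher and 1 lower, and 3 assembly factors higher and 1 lower, with medians of 0.14 and 0.08. That fit called 18.6% of all tested genes higher. Tested Nduf genes had a median of 1718 exon bases, where all tested genes had 3709.5, and the difference between the groups ran along exon length over all genes (Spearman rho -0.208 across 9406 genes) and over the 45 members (-0.21). With each library's trends with exon length and GC content removed, 15 subunits were higher and 1 lower, and 3 assembly factors higher and 1 lower, with medians of 0.15 and 0.12. In that fit 16.3% of all tested genes were called higher. The part of gene length in what remained was not tested.

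**Figure D3:**
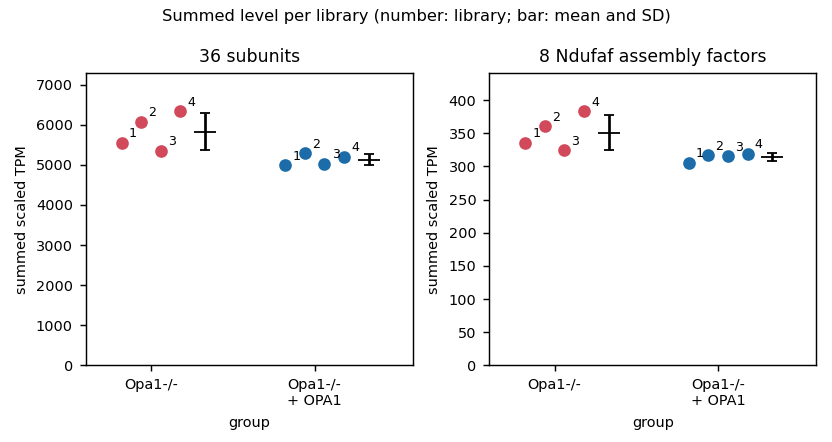
Summed scaled TPM of the 36 subunit genes (left) and the 8 Ndufaf genes (right) in each library, numbered, with the mean and SD of each group of 4 beside the points. The Opa1-/- libraries spread from 5354 to 6331 TPM for subunits and the reconstituted libraries from 4996 to 5292 TPM.

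**Figure D4:**
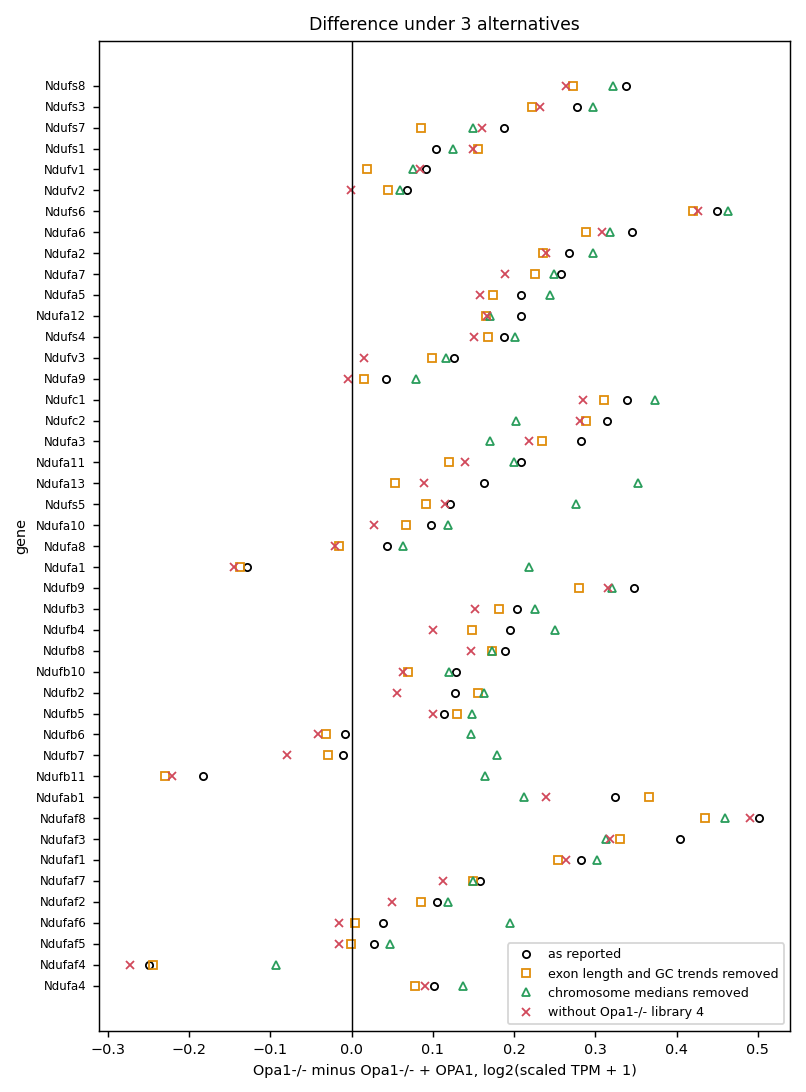
Difference between Opa1-/- and reconstituted libraries for 44 of the 45 tested Nduf genes as reported (circles), with exon length and GC trends removed (squares), with chromosome medians removed (triangles) and without Opa1-/- library 4 (crosses). Ndufs6 and Ndufaf8 stay to the right of 0.4 in all 4, while Ndufb11 and Ndufa1 change side with chromosome medians removed.

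Ndufa4, now known as a subunit of complex IV, was at 433, 503, 395 and 455 TPM in Opa1-/- libraries and at 403, 426, 403 and 427 TPM in reconstituted libraries, with overlapping groups and no call (0.10, adjusted p = 0.291). Its paralogue Ndufa4l2, known from hypoxic cells, was below the filter and not tested. It was at 0.232, 0.459, 0.396 and 0.267 TPM in Opa1-/- libraries and at 0.109, 0.168, 0.221 and 0 TPM in reconstituted libraries, on at most 9 implied reads. At that depth no fold change is given.

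Complex I genes outside the Nduf names were looked at from a list of assembly and import genes. Of 17 names 16 had a row (Coa1 did not match), all were tested, and 5 rose, 2 fell and 9 were not called (median 0.07). The share called higher was 31.2% and that called lower 12.5%, where all genes gave 16.2% and 16.9%. Aifm1, an X-linked flavoprotein of the intermembrane space, was at 80.0, 83.9, 75.3 and 81.9 TPM in Opa1-/- libraries and at 106, 105, 105 and 106 TPM in reconstituted libraries (-0.39, SE 0.04, adjusted p = 0.000159). The 301 X-linked genes with a mean log2 value above 3 had a median of -0.36, and Aifm1 was at -0.04 once chromosome medians were removed (adjusted p = 0.448). The other one that fell was Chchd4, the import receptor that works with Aifm1 (-0.20, adjusted p = 0.00759). Dmac2, needed for the distal membrane arm, averaged 16.3 ± 1.72 TPM in Opa1-/- libraries and 12.5 ± 0.606 TPM in reconstituted libraries (adjusted p = 0.0064). Nubpl, which delivers iron-sulfur clusters, averaged 5.54 ± 0.543 TPM in Opa1-/- libraries and 4.27 ± 0.448 TPM in reconstituted libraries (adjusted p = 0.0249), and its groups overlapped. With the replicate block Nubpl did not pass (adjusted p = 0.0647), nor without Opa1-/- library 1 or 2 (0.0634 and 0.0661) or reconstituted library 1, 2 or 3 (0.0557, 0.0687 and 0.0607). Tmem126a rose by 0.26 (adjusted p = 0.00964), and with chromosome medians removed it was at 0.15 (adjusted p = 0.0995). The 7 complex I subunits encoded by mitochondrial DNA went the other way, with 6 lower and mt-Nd3 not called (median -0.91). All 7 summed to 11529 to 16299 TPM in Opa1-/- libraries and 25016 to 27158 TPM in reconstituted libraries. Little of this came from mt-Nd4l, called lower at 4.53 and 7.21 TPM in Opa1-/- and reconstituted libraries, or mt-Nd3 (4.76 and 5.58 TPM). Each of the others averaged 930 TPM or more in Opa1-/- libraries. In those libraries mt-Nd3 was at 5.91, 9.03, 2.03 and 2.06 TPM.

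Levels differed more between members than between groups. Per length of all annotated exons, which is what TPM uses, subunit levels averaged over both groups ran from 23.5 TPM (Ndufb2) to 481 TPM (Ndufa2), with a median of 140 TPM and an SD of 1.23 on the log2 scale. Within the peripheral arm the core subunits ran from Ndufs8 at 269 TPM down to Ndufs1 at 60.1 TPM. Assembly factors ran from 8.09 TPM (Ndufaf3) to 144 TPM (Ndufaf2), with a median of 27.6 TPM. The order depends on the length used. In many Nduf genes the exons of all annotated transcripts add up to far more bases than the main mRNA. Among subunits TPM fell with that summed length (Spearman rho -0.58 over 36 genes, which share the length in both measures). The same reads per length of the principal transcript of the annotation (the longest where several were marked) put Ndufb7 at 273, against 37.6 TPM per exon union, as its exons add up to 4522 bases and its principal transcript to 623. Likewise Ndufb8 was at 707, against 153 TPM, and Ndufa6 at 914, against 300 TPM. On that scale the SD of the subunits was 1.13 and the Spearman rho with exon length -0.24. The scale counts reads over the extra exons as if they came from the principal transcript, and it leaves the difference between the groups as it is. Sequence shared with other genes also bears on single levels. Of the 46 members 10 share more than 10% of their words of 50 bases with other annotated transcripts, led by Ndufaf2 (64.1%), Ndufb6 (31.6%, with Smim27), Ndufa13 (28.5%, mostly with Tssk6) and Ndufs5 (21.7%, with BC002163). The called members among these 10 were Ndufs3 (17.9%), Ndufa12 (17.7%), Ndufb11 (17.5%) and Ndufb9 (15.6%). The levels of all 10 are uncertain, and whether the shared sequence bears on their differences between the groups was not tested.

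**Figure D5:**
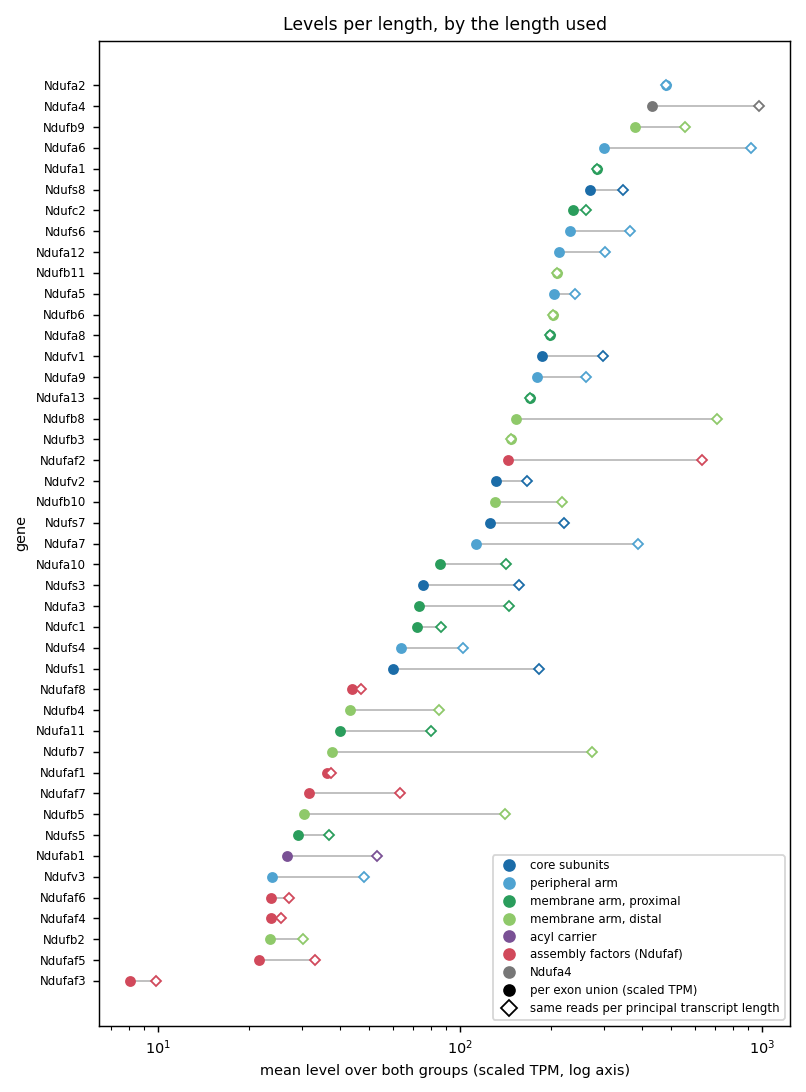
Mean level over both groups (x axis, log scale, scaled TPM) of 44 of the 45 Nduf genes above 1 TPM, per length of all annotated exons (filled circles) and as the same reads per length of the principal transcript (open diamonds), coloured by role. Ndufb7 moves from 37.6 to 273 and Ndufb8 from 153 to 707 between these lengths, while Ndufa2, Ndufa1 and Ndufb6 do not move.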

How the data were processed

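Total RNA was isolated by column (RNeasy Plus, Qiagen) and sequencing libraries were built with a NEBNext Ultra II kit, per the labels' protocols. The submitters' processing notes list STAR 2.5.2b, Subread 1.5.2 with featureCounts, and bcl2fastq 2.17, and the builds mm10 and GRCh38 without saying what each served. Per the file headers, the authors deposited TPM values, for 49315 genes in each library. The labels do not say whether counting used strand.

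The fit used the 14272 genes that reached 1 TPM in 4 libraries or more. Scaling to the mean library used a trimmed mean of log ratios computed on those genes (trimming 30% by ratio and 5% by level from either end), and log2(scaled TPM + 1) was fitted with limma-trend (limma 3.58.1, R 4.3.3), two-sided, with 4 libraries per group and no covariates; an estimated fold on this scale understates changes of low genes. The procedure was run on simulated libraries whose noise was independent between genes and between libraries. They held no trend with gene length and no deviations shared by same-numbered libraries, so the effect of these was not tested. Exon lengths, chromosomes and principal transcripts were taken from the GENCODE M21 annotation of GRCm38 (mm10); 14231 of the tested genes had both a length and a GC content. TPM times exon length stepped in whole reads: 94.2% to 94.7% of low values were whole within 0.05 of a read, which gave the implied depths. Implied reads of any 2 libraries of a group differed by more than sampling noise (chi-square per degree of freedom at least 4.725), so all were kept as separate samples. Same-numbered libraries deviated together across the groups for numbers 1 to 3 (correlations of 0.246, 0.225 and 0.317 over 9416 genes). For number 4 the correlation was 0.119, little above the 0.114 of Opa1-/- library 3 with reconstituted library 4. Pairs with different numbers ran from -0.32 to that 0.114. A fit with the replicate number as a block is therefore given where it changes a call. Python 3.11.15 with pandas 2.3.3, numpy 2.4.6 and matplotlib 3.10.9 served for the rest.

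The values of 1 member are not reported here, though counts and sums include it. The members, lists and tests were chosen with earlier results of these data known. Values in every library are given for all Ndufaf genes, the 8 called subunits with the largest rise, all that fell, X-linked members, Ndufa4, Ndufa4l2 and the member nearest the threshold on each side. Of other complex I genes, the 4 with the largest called difference are given; Chchd4 and the remaining genes were named after their values were seen. Alternatives were other scalings, pseudocount, filters, protein-coding genes only, chromosome medians, length and GC trends by splines, the block, and each library or same-numbered pair left out. Leaving out both numbered 1 or 2 was added after seeing the data. Chromosome medians were taken over genes with a mean log2 value above 3.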

Additional observations from a re-analysis of the deposited data

Results flagged for a closer look

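In 96 groups of 4 libraries (46 members and the 2 sums, in each group), 3 had a library far from the other 3 by Dixon's test, and chance alone gives about 1 group in 20. Ndufab1 was at 35.72 TPM in Opa1-/- library 4, where the other Opa1-/- libraries were at 27.6 to 28.8 TPM. Ndufs8 was at 349.6 TPM in the same library, where the others were at 280.3 to 291.5 TPM. Without that library both were still called higher. Ndufs5 was at 20.73 TPM in reconstituted library 1, where the other reconstituted libraries were at 30.02 to 30.36 TPM; Ndufs5 shares 21.7% of its 50-base words with BC002163 and was not called with or without that library.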

How the results depend on the processing

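Over 23 alternatives 6 of the 21 called members kept their call in all (Ndufaf1, Ndufaf8, Ndufb9, Ndufc1, Ndufs6 and Ndufs8), and 13 kept it whichever single library was left out. Leaving out 1 library at a time gave 10 to 19 subunits higher and 0 to 1 lower, with 10 without reconstituted library 1 or 3, and 2 to 3 assembly factors higher. The share of all tested genes called higher then ran from 12.1% (without reconstituted library 3) to 18.6% (without Opa1-/- library 4). Subunits called higher numbered 10 with no filter on low values, 7 without both libraries numbered 1 and 8 without both numbered 2 (these pairs chosen after seeing the data). Of all genes tested, 6.67%, 10.1% and 10.1% were called higher in these fits, where 16.2% were as reported. Subunits called lower numbered 0 with upper-quartile scaling, with a 5 TPM filter, with chromosome medians removed, and without both libraries numbered 1, 2 or 3. With the replicate block they numbered 2 (Ndufa1 and Ndufb11), and the calls that the block changed are given with their genes, Nubpl included, whose loss left 4 other complex I genes higher. With chromosome medians removed subunits called higher numbered 11 and assembly factors called higher 2, where 15.3% of all tested genes were called higher. The median difference was then 0.19 over subunits, 0.17 over assembly factors and 0.02 over all tested genes, where the first 2 were 0.19 and 0.13 as reported. Among the calls that ended there were those of Ndufs7, Ndufb8 and Ndufv1 (adjusted p = 0.0557, 0.0505 and 0.0967, limma-trend). Assembly factors called lower numbered 0 in that fit and other complex I genes lower 1. Other complex I genes numbered 3 higher and 1 lower on TPM as deposited, and 3 higher without both libraries numbered 1, 2 or 3. Of all tested genes 12.3% were called higher on TPM as deposited, and 10.1%, 10.1% and 11.4% without those pairs.

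Some members changed sign, among them Ndufb11, which was called lower as reported; the cause was not tested. Upper-quartile scaling put Ndufb6 at 0.0249 and Ndufb7 at 0.0222, and the 5 TPM filter at 0.0084 and 0.006. Removing chromosome medians put Ndufb11 at 0.1636, Ndufa1 at 0.2181, Ndufb6 at 0.1472 and Ndufb7 at 0.1784. Removing length and GC trends, with or without the block, put Ndufa8 at -0.0152 and Ndufaf5 at -7e-04. Without both libraries numbered 1, Ndufb7 was at 0.0109. Without both numbered 2, Ndufaf5 was at -0.0087 and Ndufb7 at 0.0056. Without both numbered 3, Ndufb6 was at 0.0436 and Ndufb7 at 0.0116. Without both numbered 4, Ndufa8 was at -0.023, Ndufaf5 at -0.0038, Ndufaf6 at -0.024, Ndufa9 at -0.0074 and Ndufv2 at -7e-04. Single libraries left out gave ranges of -0.0207 to 0.0727 for Ndufa8, -0.0042 to 0.0788 for Ndufa9, -0.016 to 0.0696 for Ndufaf5, -0.0152 to 0.0812 for Ndufaf6, -0.048 to 0.0223 for Ndufb6, -0.0795 to 0.0226 for Ndufb7, -0.0105 to 0.1881 for Ndufs5 and -9e-04 to 0.1154 for Ndufv2. Ndufa4l2 rested on 9 implied reads or fewer per library, and the next lowest member, Ndufaf3, on 201 to 399. The part of counting noise in the differences was not tested.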
